A study of Mus musculus with 27 samples.

Results

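Acetaminophen (APAP) was compared with control medium after 24 h of exposure in TAMH cells. The line is of hepatocyte origin and was established from TGF alpha transgenic mice. The comparison rests on the 3 arrays of cultures dosed with 2 mM APAP for 24 h and the 3 arrays of cultures held in control medium for 24 h, 6 of the 27 arrays of the study, and it is described for all 19938 genes with a probe set of their own. The other groups used beside it are 3 arrays of cultures given 2 mM AMAP for 24 h, and 3 APAP and 3 control arrays at each of 2 h and 6 h. Cells of all groups were confluent when dosed and were kept in serum-free medium with dexamethasone, nicotinamide, insulin, transferrin and selenium, so every group carries the transgene, the glucocorticoid and the insulin. It is 1 established line, and its response stands for these cells and not for liver. The arrays of a group carry the numbers 30, 31 and 32 (P30, P31 and P32 in the titles). The labels give passages 25 to 35 for the cells and do not state what P stands for, so whether the numbers are passages is not known. The labels do not say either that the arrays come from separate cultures, so the p-values measure the spread between these samples, which may be technical.

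APAP is an analgesic that the liver clears mostly by glucuronidation and sulfation. A minor share is oxidised by cytochromes P450 to the quinone imine NAPQI, which is trapped by glutathione and, once glutathione runs low, binds to cell proteins and disturbs mitochondria. The MAP kinases JNK and p38 are activated by this stress and act on transcription factors such as JUN. AMAP is the regioisomer with the ring hydroxyl in the meta rather than the para position, and is widely used as the less hepatotoxic counterpart of APAP. The title of the study names the regulation of MAP kinases by acetaminophen as its subject. The arrays measure RNA, so they report genes downstream of such signals and not kinase activity.

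All values are log2 signals of a probe set, and a signal says nothing about the amount of one RNA against another. The medians of the APAP arrays were 7.02, 7.07 and 7.04 and those of the control arrays 6.98, 6.97 and 6.98. APAP array 31 lay furthest out of all 27 arrays on the first principal component, and APAP arrays 31 and 32 had the lowest correlation of any pair within these groups (r = 0.992 across genes, which are not independent replicates), against at least 0.996 between control arrays. None of the 28 measured hepatocyte markers was called, and their mean signal ranged from 9.47 to 10.10 under APAP and from 9.49 to 9.79 in control. Albumin (Alb) read 13.56, 13.96 and 13.82 under APAP and 13.75, 13.73 and 13.71 in control. Ranked by control signal, the median hepatocyte marker stood at percentile 88.7 of all genes. Such percentiles place a probe-set signal and not an amount of RNA. Macrophage and leukocyte markers (17 genes, percentile 22.8) and endothelial markers (12 genes, percentile 26.2) held no called gene, and the mean signal of the macrophage list ranged from 6.27 to 6.44 under APAP and from 6.26 to 6.33 in control. Of 20 fibroblast and stellate cell markers (percentile 44.9), 2 fell, Pdgfra and Vim. Pdgfra failed the threshold without control array 30 (adjusted p = 0.0580), and Vim without any one of 5 arrays (all but APAP array 32, adjusted p from 0.0835 to 0.117). Of 7 biliary and progenitor markers 1 fell, Sox9, and that call was lost without any one of 4 arrays (APAP 30 and 32, control 30 and 31, adjusted p from 0.116 to 0.221). In RNA from whole cultures, fewer cells of a kind and less RNA per cell cannot be told apart.

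After 24 h of APAP, genes of the p53 and JUN/ATF3 stress responses stood among the largest increases, while genes of cholesterol synthesis, histones, mitosis and ribosome biogenesis fell. At a Benjamini-Hochberg adjusted p under 0.05 in a limma model over all 27 arrays, 670 genes were higher (3.36% of those tested) and 1190 were lower (5.97%), 1860 in either direction (9.33%). These 3 shares are the background against which the counts of each gene group are read below. The APAP and control arrays did not overlap for 1816 of the 1860 called genes, so a lack of overlap adds little to a call. Most differences were small: 507 of the higher and 916 of the lower genes differed by less than 0.5 log2 units, and 24 and 13 reached 2-fold. The median difference over all genes was 0.02, with a median standard error of 0.10. Scaling each array to a common median, which lowers every difference by 0.06, gave 394 higher and 1808 lower genes, so the direction of a small change depends on the scaling. The count of higher genes fell to 370 without control array 31. The count of lower genes fell to 639 without APAP array 31, and to 738, 674 and 756 without control arrays 30, 31 and 32.

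**Figure D1:**
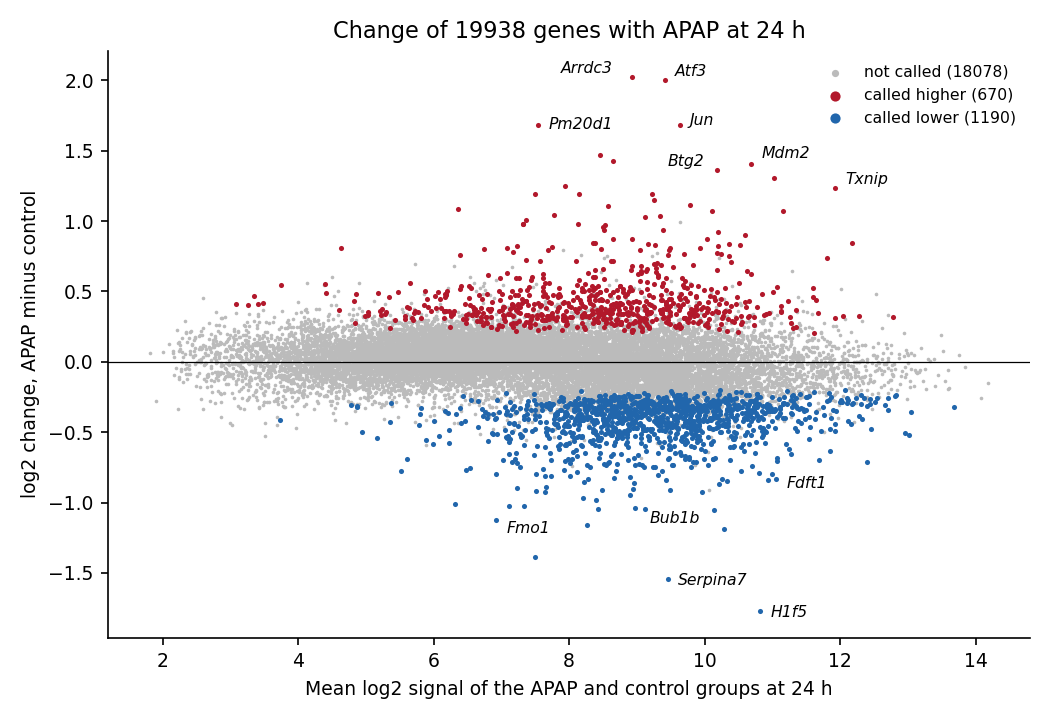
Each point is 1 of 19938 genes, with the mean log2 signal over the 6 arrays on the x axis and the difference APAP minus control at 24 h in log2 units on the y axis; called genes (670 higher, 1190 lower) are coloured. Few points pass 1 log2 unit in either direction, and Arrdc3 at 2.02 and H1f5 at -1.77 mark the extremes.

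The largest increase was in Arrdc3, an alpha-arrestin that promotes internalisation of membrane receptors. Arrdc3 read 9.63, 9.75 and 10.42 in APAP arrays 30, 31 and 32 and 7.94, 7.96 and 7.83 in the control arrays, a rise of 2.02 ± 0.19 (SE) or 4.06-fold with adjusted p = 1.32e-07. Array 32 was the highest under APAP, and a lack of overlap between the groups was a condition of this ranking. Its relative Txnip, an inhibitor of thioredoxin and of glucose uptake, rose by 1.23 ± 0.23 from control values of 11.57, 11.44 and 10.93 to 12.52, 12.58 and 12.53. Of the 6 alpha-arrestin genes, these 2 were called. Pm20d1, an enzyme that makes N-acyl amino acids from fatty acids and amino acids, read 8.39, 8.34 and 8.43 under APAP and 6.61, 6.78 and 6.72 in control (1.68 ± 0.10, adjusted p = 1.55e-10). Its 3 APAP arrays were nearly equal and far above control. Mybl1, a transcription factor of the MYB family, rose by 1.47 ± 0.13, from 7.85, 7.90 and 7.41 to 9.16, 9.11 and 9.30.

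Other large increases had varied roles. Col12a1, a fibril-associated collagen, rose from 7.23, 7.54 and 7.19 to 8.69, 8.35 and 8.66 (1.25 ± 0.12) and was the single called gene of 44 collagens. Notch3, a receptor of the Notch pathway, read 8.90, 8.61 and 8.70 under APAP and 7.52, 7.55 and 7.57 in control, a rise of 1.19 ± 0.10. The control arrays of Notch3 were almost identical. Cpt1c, a carnitine palmitoyltransferase best known from neurons, rose by 1.20 ± 0.13 and the membrane transporter Slc4a11 by 1.19 ± 0.14. Serpina3n, a serine protease inhibitor induced in inflammation, was less even, with APAP values of 8.92, 10.50 and 8.64 against 8.39, 7.85 and 7.55 in control. Its mean difference of 1.43 ± 0.33 passed the threshold (adjusted p = 0.0063), but array 31 carried most of it, and without that array the adjusted p was 0.0642.

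The largest decrease was in H1f5, a linker histone, which read 10.15, 9.54 and 10.11 under APAP and 11.76, 11.68 and 11.67 in control (-1.77 ± 0.18, adjusted p = 9.09e-07), a level 3.41-fold lower. Serpina7, the thyroxine-binding globulin secreted by liver, fell from 10.16, 10.11 and 10.42 to 8.57, 9.04 and 8.44 (-1.54 ± 0.33). Fmo1, a flavin monooxygenase that oxidises drugs, fell from 7.28, 7.75 and 7.43 to 6.24, 6.46 and 6.38 (-1.13 ± 0.18). These 3 genes were picked among called genes without overlap between the groups, so their lack of overlap was fixed by the choice. Slc17a1, an organic anion carrier, fell by 1.16 ± 0.23 on the log2 scale, the membrane protein Emp1 by 1.05 ± 0.20 and the ubiquitin-like modifier Ubd by 1.05 ± 0.17. Madcam1, an adhesion molecule, fell by 1.04 ± 0.29, but the call was lost without APAP array 30 or 32 or control array 30 or 32 (adjusted p = 0.0589, 0.0808, 0.0548 and 0.0957).

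**Figure D2:**
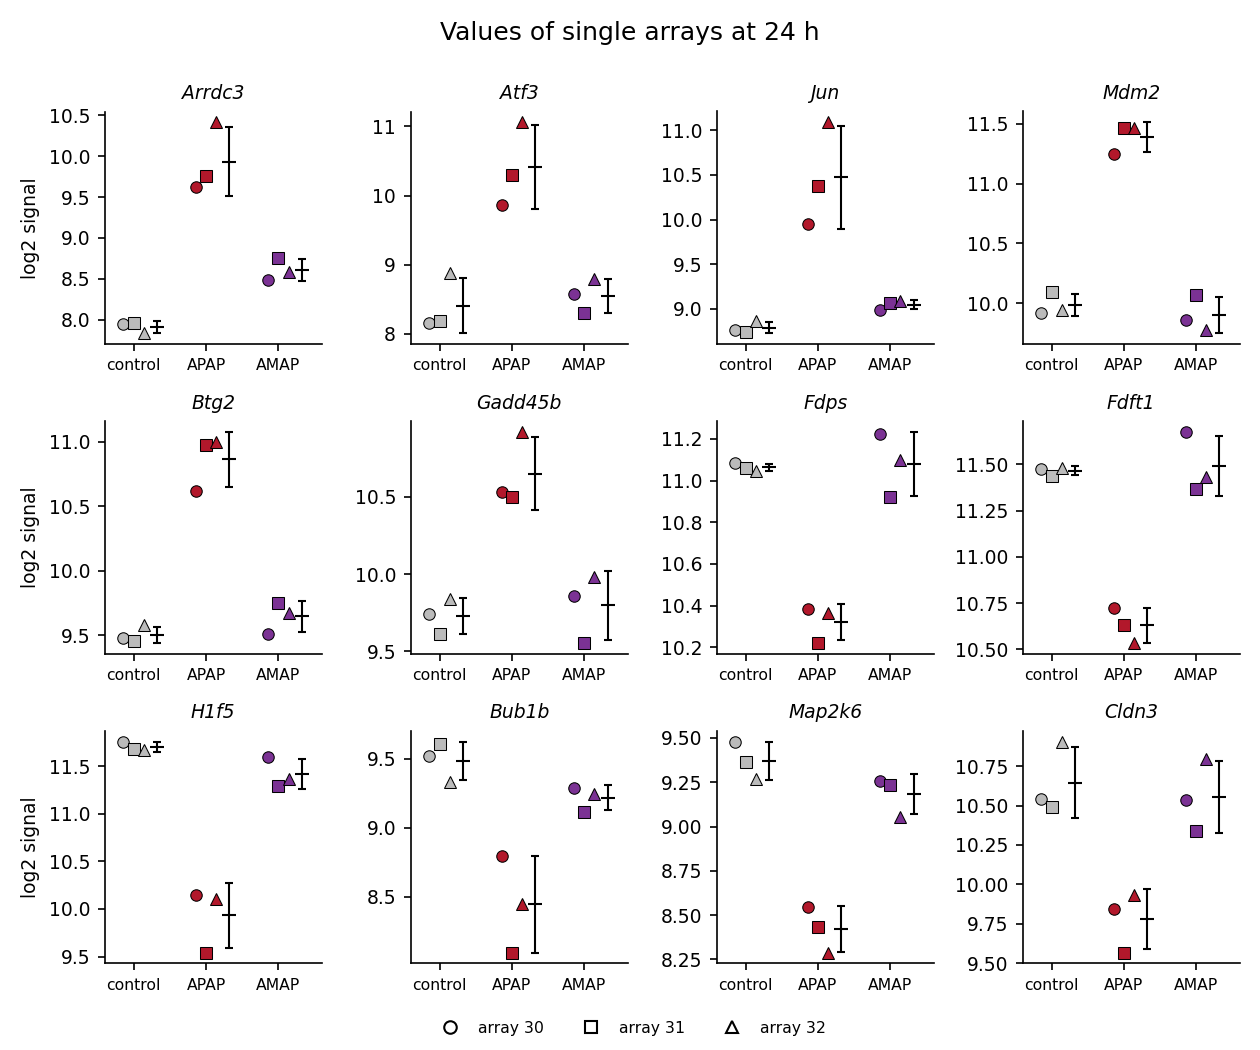
Log2 signal of 12 genes in each control, APAP and AMAP array at 24 h, with marker shapes for arrays 30, 31 and 32 and bars for the mean ± SD of 3 arrays. Arrdc3, Atf3 and Jun are highest in APAP array 32, Mdm2 and Btg2 vary little within a group, and the AMAP arrays of most genes shown sit near control.

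The p53 response was among the clearest gene groups. p53 is a transcription factor that is stabilised by DNA damage and other stress, switches on genes of cell cycle arrest, repair and cell death, and is held in check by its own targets Mdm2 and Mdm4. Mdm2, the ubiquitin ligase that degrades p53, read 11.25, 11.46 and 11.46 under APAP and 9.92, 10.09 and 9.95 in control, a rise of 1.40 ± 0.14 (2.65-fold, adjusted p = 3.63e-07). The rise exceeded the spread within either group many times over. Of 11 genes of the p53 core and its feedback, 4 rose and none fell. Besides Mdm2 these were Trp53inp1, a stress-induced partner of p53 (1.07 ± 0.13), the cyclin Ccng1 (0.84 ± 0.12) and Mdm4 (0.65 ± 0.14). The median of this list, 0.02, was that of all genes, and under median scaling 2 other members counted as lower.

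Most targets that slow growth rose. Of 11 such genes, Ccng1 among them, 9 rose and none fell, with a median of 0.69 against 0.02 for all genes. Btg2, an antiproliferative adaptor of the RNA deadenylase, read 10.86 ± 0.21 (mean and SD, n = 3) under APAP, with its lowest array at 10.62, against 9.48, 9.46 and 9.57 in control (1.36 ± 0.12). Plk2, a polo-like kinase, read 11.41, 11.61 and 11.99 against 10.28, 10.25 and 10.56 (1.31 ± 0.20). Sesn2, a sestrin that restrains mTORC1, rose by 0.96 ± 0.16, while its relative Sesn1 differed by 0.02 ± 0.08. Psrc1 and Gtse1, microtubule-associated proteins, rose by 0.87 ± 0.14 and 0.69 ± 0.16. Gadd45a, a stress sensor that binds PCNA and MAP3K4, rose by 0.67 ± 0.18, from 8.71, 8.75 and 9.37 to 9.38, 9.40 and 10.05. Array 32 of Gadd45a was the highest in both groups, and the call was lost without APAP array 32, control array 30 or control array 31 (adjusted p = 0.124, 0.0998 and 0.0977). The call of Zmat3, an RNA-binding target of p53 (0.46), was lost without APAP array 30 (adjusted p = 0.0508).

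Targets that act in cell death or survival followed. Of 15, 10 rose and 1 fell, with a median of 0.55. Phlda3, which restrains AKT, had the largest rise of them, from 10.04, 10.24 and 10.17 to 11.11, 10.87 and 11.16 (0.90 ± 0.19). The receptor Fas, which starts the extrinsic death pathway, read 9.32, 9.62 and 9.39 under APAP and 8.80, 8.60 and 8.56 in control (0.79 ± 0.10). Every APAP array of Fas lay well above every control array. Pidd1, the scaffold of the PIDDosome, rose by 0.85 ± 0.10, the death receptor Eda2r by 0.82 ± 0.17, the desmosomal protein Perp by 0.77 ± 0.08, Pmaip1 (NOXA) by 0.76 ± 0.10 and Apaf1 by 0.56 ± 0.11. Bid, which links death receptors to mitochondria, was the member that fell (-0.48 ± 0.09), and Bbc3 (PUMA) differed by 0.22 ± 0.08 with adjusted p = 0.0950. Across the 18 genes of the BCL2 family, Pmaip1 rose and Bid and Bok fell. Bok, a BAX-like effector, read 8.68, 8.36 and 8.55 against 9.41, 9.27 and 9.50 (-0.86 ± 0.10).

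Among 12 targets in DNA repair and metabolism 5 rose and none fell. Ercc5, an endonuclease of nucleotide excision repair, read 9.79, 9.88 and 9.91 against 8.85, 8.87 and 8.75 (1.04 ± 0.10). Polk, a translesion polymerase, rose by 1.03 ± 0.15, Dcxr, a dicarbonyl and xylulose reductase, by 1.15 ± 0.13, and Mgmt, which removes alkyl groups from guanine, by 0.42 ± 0.08. Without APAP array 32, 1 other member counted as lower. Cdkn1a, Bax and Gdf15 were not analysed here. In the 250 bases before the start of Mdm2, RefSeq (GRCm38.p6) holds 1 match to the p53 half-site, shown in capitals in this window because Mdm2 is the central feedback target.

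Mdm2, chr10:117710907-117710972, minus strand: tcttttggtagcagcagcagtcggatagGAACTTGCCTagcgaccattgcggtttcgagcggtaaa

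A half-site match was found in 3 of 12 promoters of growth-arrest targets, 3 of 15 of death and survival targets and 1 of 11 of repair targets. On either strand, 7.13% of all 32851 promoters of that length held it. It also stood in 4 of 17 promoters of cholesterol synthesis, whose genes mostly fell. Across the comparison as a whole it stood in 7.32% of the promoters of genes that rose and in 6.11% of those that fell. Such a match is a description of the sequence and not a binding site.

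Immediate early genes, which are switched on within minutes of growth and stress signals without new protein synthesis, were raised in part at 24 h. Of 29, 8 rose and none fell, and the count was 5 without APAP array 31, APAP array 32 or any one of the control arrays. Atf3, a stress-induced repressor of the ATF/CREB family, read 9.87, 10.31 and 11.06 under APAP and 8.16, 8.19 and 8.88 in control (2.00 ± 0.24, 4.01-fold, adjusted p = 6.63e-06). Array 32 was the highest of both groups, and the groups stayed apart by almost 1 log2 unit. Jun, the AP-1 subunit phosphorylated by JNK, read 9.95, 10.37 and 11.09 against 8.77, 8.74 and 8.86 (1.69 ± 0.21, 3.22-fold). The control arrays of Jun were close together, while its APAP arrays spread over more than 1 log2 unit. Ier5 rose by 0.83 ± 0.13 and Zfp36, which destabilises cytokine mRNA, by 0.53 ± 0.11. Fos (0.41 ± 0.12) and Egr1 (0.52 ± 0.16) just passed, and either call was lost without APAP array 31 or 32 or any control array (adjusted p from 0.0555 to 0.170 for Fos and from 0.0768 to 0.249 for Egr1). For Egr1 the APAP value of array 30, 8.22, lay only just above the control values of 8.12, 8.11 and 8.15, while arrays 31 and 32 read 9.02 and 8.70.

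The MAP kinases themselves changed little at the RNA level. Of 44 MAP kinases and upstream kinases, 2 rose and 4 fell (4.55% and 9.09%), shares close to the background of all genes. Mapk8, which encodes JNK1, read 9.07, 9.22 and 9.43 against 9.15, 9.04 and 9.16 (0.12 ± 0.08, 95% interval -0.05 to 0.29), and Mapk14, which encodes p38 alpha, differed by -0.12 ± 0.09 (interval -0.30 to 0.06). Both groups overlapped for Mapk8. Map2k6, the kinase that phosphorylates p38, was the exception, with 8.55, 8.43 and 8.29 under APAP and 9.48, 9.36 and 9.27 in control (-0.95 ± 0.10, 1.93-fold lower, adjusted p = 1.24e-06). The p38 and ERK substrate kinases Mknk2 and Mapkapk3 rose by 0.52 ± 0.09 and 0.48 ± 0.12, and Mapkapk3 missed the threshold without control array 30 (adjusted p = 0.0550). Map3k5 (ASK1), which starts the JNK and p38 cascade under oxidative stress, fell by 0.35 ± 0.09 on the log2 scale, a call lost without APAP array 32 or control array 31 (adjusted p = 0.0663 and 0.0523). The small falls of Map3k1 (-0.37) and Map2k5 (-0.30) depended on single arrays too. The call of Map3k1 was lost without APAP arrays 30 or 32 or control arrays 30 or 31 (adjusted p from 0.0655 to 0.143), and that of Map2k5 without any array except APAP array 30 (from 0.0518 to 0.135), and the count of lower kinases was 1 without APAP array 32 or control array 31 and 2 without control array 30.

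Several regulators around the kinases changed. The Gadd45 proteins activate MAP3K4 upstream of p38 and JNK, and 3 of the 4 listed genes rose (Gadd45a, Gadd45b and Gadd45g). The other listed gene, Gadd45gip1, does not encode a Gadd45 protein and was not called. Gadd45b read 10.53, 10.50 and 10.92 against 9.74, 9.61 and 9.84 (0.92 ± 0.16), and Gadd45g 8.34, 8.38 and 8.64 against 7.82, 7.67 and 7.73 (0.72 ± 0.12). The lowest APAP array of each lay above the highest control array. Of 20 MAP kinase phosphatases and feedback inhibitors 2 rose and 1 fell (10.0% and 5.0%, against 3.36% and 5.97% of all genes). Dusp8, a phosphatase of JNK and p38, read 8.19, 8.30 and 8.68 against 7.70, 7.83 and 8.01 (0.54 ± 0.11). Dusp9, which acts on ERK, fell from 8.23, 8.22 and 8.34 to 7.79, 7.76 and 7.74 (-0.50 ± 0.09). Dusp1 rose by 0.64 ± 0.18, a call lost without APAP array 32, control array 30 or control array 31 (adjusted p = 0.146, 0.109 and 0.0899), and under median scaling the list held 1 higher and 4 lower genes. Of 15 ligands and receptors of the EGF family, to which the transgene of this line belongs, only Ereg rose (0.52 ± 0.14), and its call was lost without APAP array 32, control array 30 or control array 31 (adjusted p = 0.122, 0.0580 and 0.0667). Egfr differed by 0.11 ± 0.09, Tgfa by 0.08 ± 0.09 and Hbegf by 0.45 ± 0.17 (adjusted p = 0.105).

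The integrated stress response, in which phosphorylated eIF2 alpha slows translation while ATF4 drives amino acid and stress genes, was split. Of 25 effectors 4 rose and 1 fell, with a median of -0.01. Ppp1r15a (GADD34), which restores eIF2 alpha, read 8.66, 9.14 and 9.59 against 7.78, 7.79 and 8.49 (1.11 ± 0.19), and Ddit3 (CHOP) 8.93, 9.37 and 9.81 against 8.27, 8.33 and 8.90 (0.87 ± 0.17). For both genes the values were highest in array 32 of either group. Atf3 and Sesn2, described above, were the other members that rose. Atf4 itself differed by 0.04 ± 0.11, and Trib3, a target of ATF4 and CHOP, by -0.37 ± 0.20 (adjusted p = 0.299). Slc7a5, a leucine carrier under ATF4, fell by 0.60 ± 0.18 on the log2 scale, a call lost without APAP array 30 or 31 or control array 31 or 32 (adjusted p = 0.109, 0.147, 0.0717 and 0.198). The promoters of Atf3 and Ppp1r15a are shown for the stress elements that a search of the 250 bases before the start found in them. The capitals mark the reverse complement of TGATGCAA (amino acid response element) in Atf3 and TGACGTCA (cyclic AMP response element) in Ppp1r15a.

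Atf3, chr1:191183408-191183471, minus strand: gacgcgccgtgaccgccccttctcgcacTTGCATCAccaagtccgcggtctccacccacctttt
Ppp1r15a, chr7:45526269-45526308, minus strand: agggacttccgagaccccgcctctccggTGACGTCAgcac

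On either strand, 0.791% of all promoters of that length held TGATGCAA and 1.55% held TGACGTCA.

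Genes of biosynthetic groups that ATF4 is known to drive fell. Of 15 genes of serine, asparagine and one-carbon synthesis 10 fell and none rose (median -0.39). Psph, the last enzyme of serine synthesis, read 7.91 ± 0.16 (mean and SD, n = 3) under APAP, with its highest array at 8.01, against 8.28, 8.45 and 8.62 in control (-0.53 ± 0.12). Psat1, the step before it, fell by 0.49 ± 0.11 and Mthfd1, of the folate cycle, by 0.46 ± 0.09. The count fell to 6 without APAP array 31, control array 31 or control array 32. Of 18 cytosolic aminoacyl-tRNA synthetases 11 fell and none rose (median -0.30), among them Farsb (-0.48 ± 0.09) and Vars (-0.36 ± 0.07). Without APAP arrays 30 or 31 or control arrays 31 or 32 this count was 6, 4, 5 and 4. Chaperones of the endoplasmic reticulum showed no common direction, with 3 of 32 higher and 2 lower, and 1 higher and 1 lower without APAP array 31. Dnajb9, a co-chaperone of BiP, rose from 8.98, 8.72 and 8.88 to 9.29, 9.56 and 9.43 (0.57 ± 0.11).

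Cholesterol synthesis was lower along most of its length. The pathway joins acetyl units to mevalonate and isoprenoids, condenses these to squalene, closes the ring to lanosterol and trims lanosterol to cholesterol, and its genes are driven together by SREBP-2 when sterols are scarce. Of 17 measured enzymes 14 fell (82.4%, against 5.97% of all genes) and 1 rose (5.88%), with a median of -0.65. Leaving out any single array or scaling to a common median moved the count of lower genes by less than 1.5 times, while the count was 9 without all arrays numbered 30 and 6 without all arrays numbered 31.

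In the mevalonate arm, Hmgcs1, which makes HMG-CoA, read 10.74, 10.55 and 10.49 under APAP and 11.48, 11.41 and 11.28 in control (-0.80 ± 0.16, 1.74-fold lower). Mvk, Pmvk and Mvd, the kinases and the decarboxylase that lead to isopentenyl pyrophosphate, fell by 0.50 ± 0.11, 0.65 ± 0.10 and 0.67 ± 0.16. Idi1, the isomerase that follows, fell by 0.71 ± 0.12, and Fdps, which builds farnesyl pyrophosphate, read 10.38, 10.22 and 10.36 against 11.08, 11.06 and 11.05 (-0.74 ± 0.08, adjusted p = 7.58e-07). Every APAP array of these genes lay below every control array. Fdft1, the squalene synthase, had the largest fall of the pathway, from 11.48, 11.44 and 11.48 to 10.73, 10.63 and 10.53 (-0.84 ± 0.12, 1.78-fold lower), and another probe set of Fdft1 gave -0.98. Sqle, the squalene epoxidase and a rate-limiting step, read 11.50, 11.23 and 11.28 against 11.97, 12.03 and 12.10 (-0.70 ± 0.13). Lss, the cyclase that makes lanosterol, fell by 0.69 ± 0.17.

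After lanosterol, several calls depended on single arrays. Cyp51, the first demethylase, fell by 0.58 ± 0.12 and Nsdhl, of the same demethylation, read 10.88, 10.57 and 10.71 against 11.35, 11.46 and 11.40 (-0.68 ± 0.09, adjusted p = 1.07e-05). Msmo1 (-0.47), Dhcr7 (-0.53) and Sc5d (-0.33) fell, but Msmo1 missed the threshold without control arrays 31 or 32 (adjusted p = 0.0558 and 0.0606), Dhcr7 without APAP arrays 31 or 32 or any control array (0.0729 to 0.134), and Sc5d without any one of the 6 arrays (0.0711 to 0.144). Hsd17b7 (-0.46 ± 0.16, adjusted p = 0.0782) and Ebp (-0.21 ± 0.09, adjusted p = 0.127) were not called. Tm7sf2, a sterol C14 reductase, was the member that rose (0.32 ± 0.10), a call lost under median scaling and without APAP arrays 30 or 31 or any control array (adjusted p from 0.0543 to 0.136).

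Of 16 regulators and uptake genes of the pathway 2 rose and 3 fell, with a median of 0.05. Srebf2, which encodes SREBP-2, read 11.08, 10.91 and 10.79 under APAP and 11.51, 11.50 and 11.64 in control (-0.62 ± 0.10), and Srebf1 10.26, 10.16 and 10.00 against 10.64, 10.66 and 10.77 (-0.55 ± 0.08). The cholesterol carrier Stard4, a target of SREBP-2, fell by 0.69 ± 0.08. Npc1, which releases cholesterol from lysosomes, rose from 9.74, 9.54 and 9.63 to 10.11, 10.15 and 10.05 (0.47 ± 0.09). Insig1, which retains the SREBP complex in the endoplasmic reticulum, differed by -0.43 ± 0.14 with adjusted p = 0.0605. In this list 1 rose without any one of the 6 arrays except APAP array 32, and under median scaling 1 rose and 5 fell.

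**Figure D3:**
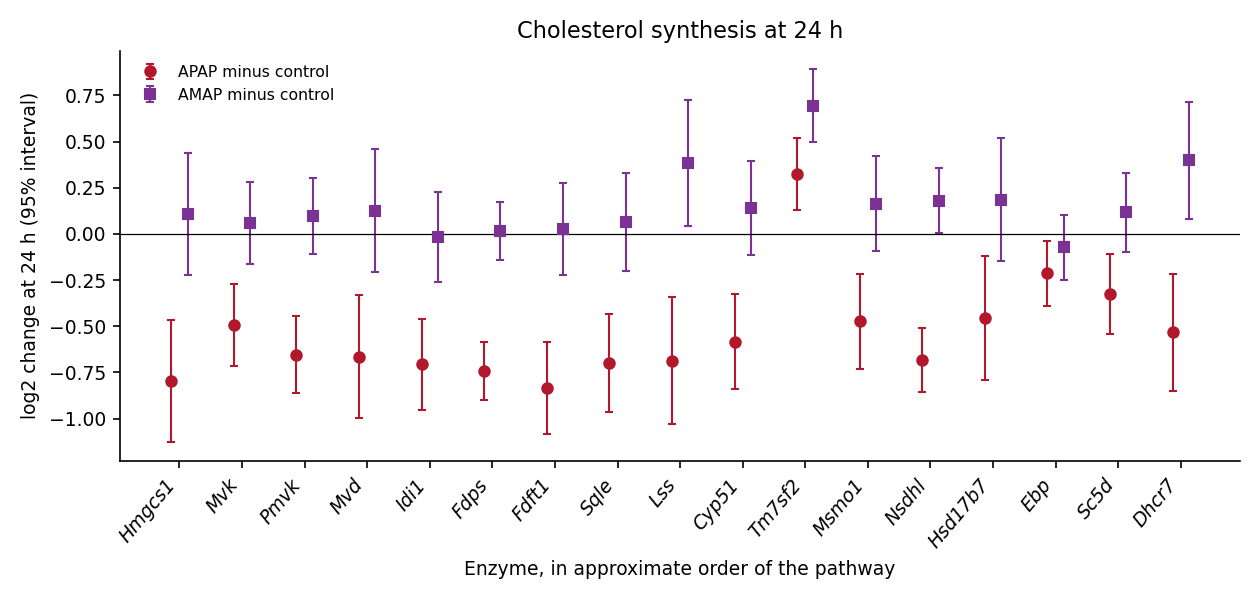
Difference APAP minus control at 24 h in log2 units for the 17 enzymes of cholesterol synthesis in approximate order of the pathway, with bars for the 95% interval; AMAP minus control, which uses the same control arrays, is shown beside it. Of the 17 enzymes 16 lie below 0 under APAP, with Tm7sf2 above it.

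Because these genes moved together, their promoters were searched for the sterol element TCACNCCAC and for CCAAT, the box bound by NF-Y that often accompanies SREBP sites. Promoter entries were matched for 14 of the 17 genes, with 17 promoters between them. The windows below, from RefSeq (GRCm38.p6), show the only match to the sterol element and CCAAT matches in 4 other promoters, with each match in capitals (ATTGG is CCAAT on the other strand).

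Hmgcs1, chr13:119690186-119690250, plus strand: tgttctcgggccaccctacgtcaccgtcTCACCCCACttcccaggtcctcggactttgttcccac
Mvk, chr5:114444174-114444234, plus strand: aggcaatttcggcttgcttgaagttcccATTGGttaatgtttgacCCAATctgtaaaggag
Lss, chr10:76531515-76531575, plus strand: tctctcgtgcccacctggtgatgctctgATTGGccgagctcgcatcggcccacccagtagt
Cyp51, chr5:4104698-4104754, minus strand: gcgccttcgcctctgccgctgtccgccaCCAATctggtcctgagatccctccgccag
Nsdhl, chrX:72918384-72918444, plus strand: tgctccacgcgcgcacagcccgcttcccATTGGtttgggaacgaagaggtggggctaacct

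CCAAT on either strand stood in 14 of the 17 promoters (82.4%), against 33.9% of all promoters of that length. The strict sterol element stood in 1 of 17 (5.88%), against 1.05% of all, and the absence of these exact letters says nothing about SREBP-2 at the other genes.

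Some genes of fatty acid synthesis fell. Of 40 genes of fatty acid and triglyceride synthesis 12 fell and none rose (median -0.15), and the count was 7 without control array 30. Elovl6, which elongates palmitate, read 9.97, 9.70 and 9.85 against 10.73, 10.53 and 10.75 (-0.83 ± 0.13). Scd1 and Scd2, the desaturases that make oleate, fell by 0.63 ± 0.11 and 0.52 ± 0.09, the desaturase Fads1 by 0.44 ± 0.08, Cideb, a protein of lipid droplets and lipoprotein assembly, by 0.70 ± 0.13 and Aacs, which activates acetoacetate for lipid synthesis, by 0.59 ± 0.14. The opposite side of fat metabolism rose in part. Of 33 genes of PPAR alpha and fatty acid oxidation 7 rose and none fell, but the count was 3 under median scaling, and 4, 2 and 3 without APAP array 30, APAP array 31 and control array 32. Pdk4, the kinase that blocks pyruvate oxidation, read 9.75, 9.95 and 9.85 under APAP and 9.19, 8.92 and 8.64 in control (0.93 ± 0.13, 1.91-fold). Its APAP arrays were close together, and its control arrays were spread more widely. Hadhb, of the mitochondrial beta-oxidation complex, rose by 0.35 ± 0.08. Pcx, the pyruvate carboxylase, rose from 8.65, 8.68 and 8.78 to 9.34, 9.45 and 9.18 (0.62 ± 0.10).

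Some histone genes and genes of mitosis fell. Most histone genes are transcribed in S phase and lack poly(A) tails, and mitotic genes peak in G2 and M under the DREAM and MuvB complexes, so both groups mark proliferating cells. Of 34 linker and core histone genes 13 fell (38.2%) and none rose, with a median of -0.32, and 8 fell without APAP array 31. Besides H1f5, the linker histone H1f1 read 9.64, 9.33 and 10.10 against 10.79, 10.88 and 10.96 (-1.19 ± 0.18). The core histone gene H2bc14 fell by 0.92 ± 0.17 and H2ax, the variant phosphorylated at DNA breaks, by 0.78 ± 0.10, from 9.71, 9.81 and 9.77 to 9.04, 8.87 and 9.04. Histone genes are close copies of each other, and probe sets may share signal between them.

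Of 63 genes of mitosis and G2/M 17 fell (27.0%) and none rose, with a median of -0.27. This count depended on single arrays: dropping APAP array 31 gave 4, dropping control array 30 gave 11 and dropping control array 31 gave 6. Bub1b, the BUBR1 kinase of the spindle checkpoint, read 8.80, 8.09 and 8.45 under APAP and 9.52, 9.60 and 9.33 in control (-1.04 ± 0.18, 2.06-fold lower). Array 31 was the lowest, and array 30, the highest under APAP, still lay below every control array. Aspm, which organises spindle poles, and Cenpf, a kinetochore protein, each fell by 0.75 (SE 0.14 and 0.17), and Kif18a, a kinesin that dampens chromosome movement, by 0.73 ± 0.16. Plk1, the main mitotic polo kinase, read 10.21, 9.42 and 10.06 against 10.74, 10.80 and 10.71 (-0.85 ± 0.22), and its call was lost without APAP array 31 or control array 31 (adjusted p = 0.130 and 0.0572).

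Replication was counted apart from mitosis. Of 53 genes that act in replication or G1/S, 7 fell and 1 rose (median -0.08), with 4 lower and 2 higher without APAP array 31, none higher without APAP array 32 or control array 30, and 13 lower and none higher under median scaling. Pold2, a subunit of DNA polymerase delta, read 9.18, 9.03 and 9.25 against 9.92, 9.82 and 9.91 (-0.73 ± 0.09). Gins1, of the replicative helicase, fell by 0.66 ± 0.13, with array 31 lowest at 8.83 against 9.53 and 9.60 in the other APAP arrays. Uhrf1, which maintains DNA methylation, fell by 0.58 ± 0.11 and Tk1, the thymidine kinase, by 0.54 ± 0.11.

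CCAAT boxes are also known in promoters of histone and G2/M genes. They stood in 23 of 29 histone promoters (79.3%) and 42 of 55 mitosis promoters (76.4%), against 33.9% of all promoters, in windows such as these from RefSeq (GRCm38.p6), with the box in capitals.

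Bub1b, chr2:118598070-118598130, plus strand: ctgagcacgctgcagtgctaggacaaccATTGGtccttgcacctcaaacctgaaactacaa
Aspm, chr1:139454657-139454717, plus strand: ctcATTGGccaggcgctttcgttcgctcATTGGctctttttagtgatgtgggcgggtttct
Plk1, chr7:122159393-122159434, plus strand: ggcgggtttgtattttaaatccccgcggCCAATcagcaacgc

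The letters TTTGAA, the core of the cell cycle homology region, stood in 21 of 55 mitosis promoters (38.2%) and 10 of 29 histone promoters (34.5%), against 16.0% of all. They were not found in the promoters of Bub1b, Aspm and Plk1 shown above. Across the comparison as a whole CCAAT did not separate the directions: it stood in 38.9% of the promoters of genes that rose and in 35.9% of those that fell. In the growth-arrest targets of p53, which rose, it stood in 10 of 12.

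Many genes of ribosome biogenesis fell by small steps. Ribosome biogenesis factors assemble and modify ribosomal RNA in the nucleolus, and their genes follow growth signals. Of 79 such genes 35 fell (44.3%) and none rose, with a median of -0.30, and 16 fell without APAP array 31 and 22 without control array 31. Grwd1, a histone-binding factor of ribosome assembly, read 8.69, 8.52 and 8.86 under APAP and 9.20, 9.43 and 9.42 in control (-0.66 ± 0.13). Ltv1, needed for export of the small subunit, fell by 0.69 ± 0.15 and dyskerin (Dkc1), the pseudouridine synthase, by 0.58 ± 0.12. The 59 cytosolic ribosomal proteins behaved otherwise, with none called in either direction and a median of -0.07. Of 77 mitochondrial ribosomal proteins 22 fell and none rose (median -0.20), and the count was 8, 14 and 14 without APAP array 31, control array 31 and control array 32. Mrps27 fell most of them, from 8.41, 8.42 and 8.33 to 7.92, 7.57 and 7.59 (-0.69 ± 0.09).

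Some genes of nucleotide synthesis and of the proteasome fell. Of 24 genes of nucleotide synthesis 10 fell and 1 rose (Prps2, 0.34, chosen after its value was seen and not called without APAP array 32 or any control array), and 6, 5, 5 and 5 fell without APAP arrays 30 and 31 and control arrays 31 and 32. Cad, which catalyses the first steps of pyrimidine synthesis, read 9.40, 9.06 and 9.42 against 9.77, 9.91 and 9.83 (-0.54 ± 0.09), and Prps1, which makes the ribose phosphate donor, fell by 0.52 ± 0.11. Of 45 proteasome subunits 8 fell and none rose, but the count was 5, 3 and 16 without APAP arrays 30, 31 and 32 and 17 under median scaling. Psma5, a core subunit, fell by 0.50 ± 0.11. Of 45 lysosomal and autophagy genes 8 rose and none fell, though the count was 3, 5 and 4 without APAP array 32 and control arrays 30 and 31, and median scaling gave 5 higher and 1 lower. Ctsd, a lysosomal protease, rose by 0.32 ± 0.07 and Atg14, which starts autophagosomes, by 0.43 ± 0.09.

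**Figure D4:**
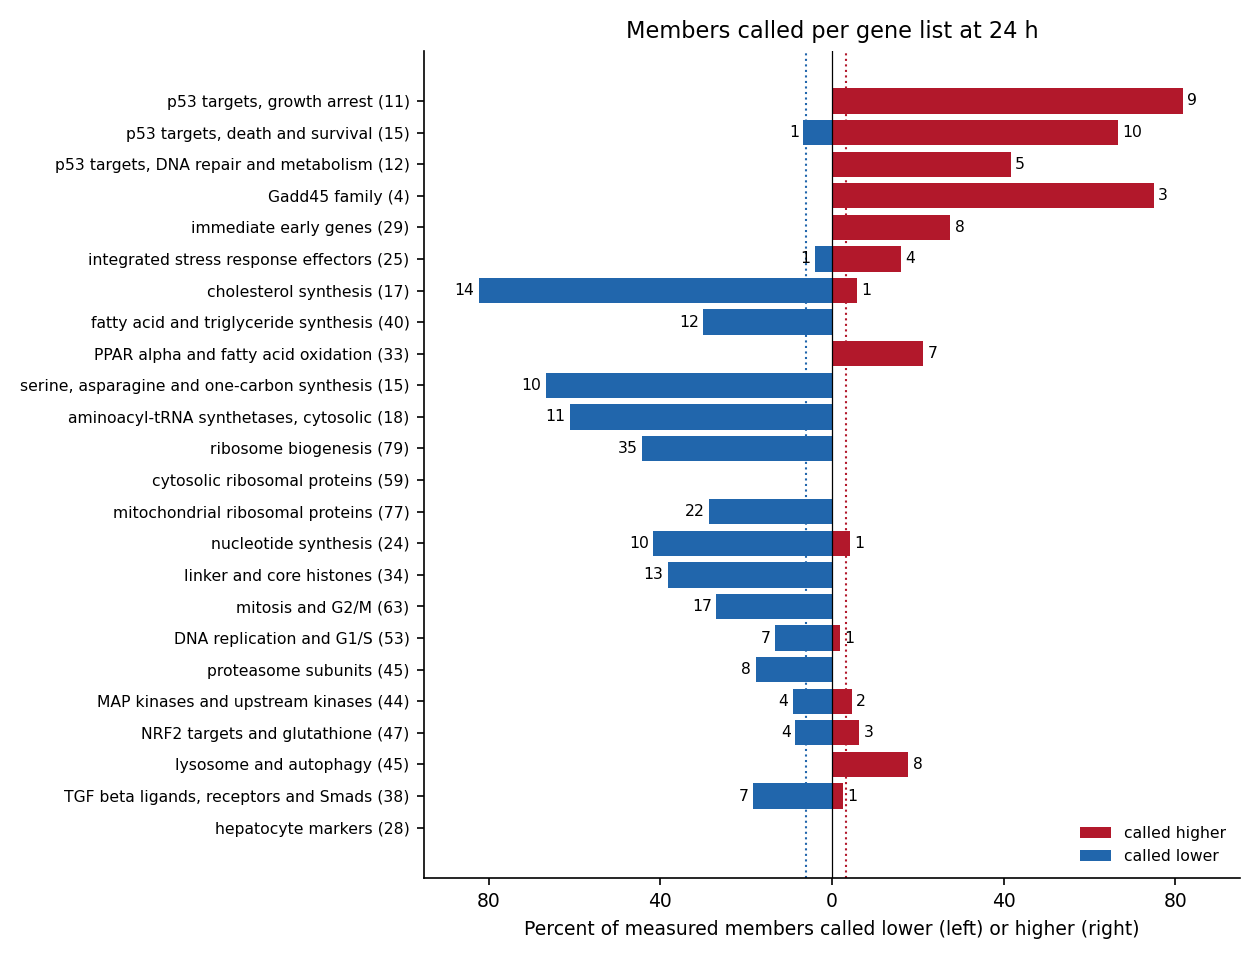
Share of members that rose (right) or fell (left) at 24 h in 24 gene lists, in percent of the measured members, with dotted lines at the shares over all genes (3.36% and 5.97%). Cholesterol synthesis, serine and one-carbon synthesis and tRNA synthetases reach furthest to the left, and the p53 growth-arrest list, the Gadd45 family and the p53 death list furthest to the right.

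Genes of drug metabolism and antioxidant defence, the first line against NAPQI, showed few changes. Of 47 NRF2 targets and glutathione genes 3 rose and 4 fell (6.38% and 8.51%), near the background shares, and 8 fell under median scaling. The count of lower genes was 1, 2 and 7 without APAP arrays 30, 31 and 32 and 2 without control array 30 or 32. Hmox1 read 8.85, 8.77 and 9.13 against 8.59, 8.64 and 8.92 (0.20 ± 0.11, 95% interval -0.01 to 0.42). Gclc, which limits glutathione synthesis, differed by 0.21 ± 0.11, Srxn1 by 0.10 ± 0.11 and Nqo1 by 0.02 ± 0.13, none of them called. Ephx1, the microsomal epoxide hydrolase, was the clear exception, with 12.23, 12.33 and 11.97 against 11.39, 11.48 and 11.46 (0.74 ± 0.10), and Abcc4, an export pump for organic anions, rose by 0.51 ± 0.11. Tkt, the transketolase that supplies NADPH indirectly, fell by 0.43 ± 0.08.

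Of 69 cytochromes P450 of families 1 to 4, 4 rose and 1 fell (5.80% and 1.45%, against 3.36% and 5.97% of all genes). Without APAP array 32, 7 rose. Cyp2e1, known for oxidising APAP to NAPQI, read 5.24, 5.11 and 5.27 under APAP and 5.09, 5.24 and 5.28 in control (0.00 ± 0.08), signals in the lower part of the array in both groups. Cyp1a2 differed by 0.02 ± 0.10. Cyp3a11 spread from 5.37 to 6.85 under APAP and from 4.45 to 6.33 in control (0.69 ± 0.43, 95% interval -0.20 to 1.58), too wide to show a difference of that size. Cyp3a13 rose from 9.52, 9.56 and 9.83 to 10.09, 10.05 and 10.40 (0.54 ± 0.13), and Cyp2u1, which hydroxylates long fatty acids, by 0.56 ± 0.09. The fall of Cyp2c67 (-0.77 ± 0.22) was lost without APAP array 32, control array 30 or control array 32 (adjusted p = 0.113, 0.0730 and 0.0722).

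Among the conjugating and hydrolysing enzymes, Gstp1, the most studied glutathione transferase in APAP toxicity, differed by -0.16 ± 0.08 (adjusted p = 0.263). Of 27 sulfotransferases and glucuronosyltransferases 2 fell (7.41%, against 5.97% of all genes) and none rose. Sult1c2 fell from 8.02, 7.80 and 8.16 to 7.22, 7.14 and 7.35 (-0.76 ± 0.13). Of 16 carboxylesterases, which cleave esters and amides, 4 rose and 1 fell, and none fell without APAP array 32. Ces2e read 10.94, 11.06 and 10.79 against 10.14, 10.12 and 10.06 (0.83 ± 0.07, adjusted p = 3.82e-08), and Ces2g rose by 0.69 ± 0.11. The groups were well apart for both, and neither call depended on a single array.

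Genes of cell contacts and of other pathways are given by list. Of 32 keratin and junction genes 2 fell and 1 rose (6.25% and 3.125%), close to the shares of all genes (5.97% and 3.36%). None rose without APAP array 32 or control array 30 or 32, and under median scaling 6 fell and none rose. Cldn3, a claudin of tight junctions, read 9.84, 9.56 and 9.93 under APAP and 10.54, 10.49 and 10.91 in control (-0.87 ± 0.11, 1.82-fold lower). E-cadherin (Cdh1) read 8.56, 8.69 and 8.53 against 9.27, 9.31 and 9.42 (-0.74 ± 0.15). All APAP arrays of both genes lay below all control arrays. The collagen-binding integrin Itga1 fell by 0.84 ± 0.14 and the Wnt receptor Fzd2 by 0.83 ± 0.12. Of 38 genes of TGF beta signalling 7 fell and 1 rose (none without control array 32), and 3 or 4 fell without any one of 5 arrays (all but APAP array 32). Id3, a target of BMP signals, fell by 0.55 ± 0.12, Smad1 by 0.46 ± 0.09 and Tgfb1 by 0.38 ± 0.09.

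Of 18 clock genes 6 rose and 1 fell, but 2 rose without APAP array 31, 3 without control array 32 and 3 under median scaling. Nr1d1 (REV-ERB alpha), the haem-binding repressor of the clock, read 8.78, 9.15 and 9.32 against 8.26, 8.11 and 8.24 (0.87 ± 0.12, 1.83-fold). Bhlhe40, another clock repressor, fell by 0.65 ± 0.17, a call lost without APAP array 32 or control array 31 (adjusted p = 0.0557 and 0.0531). Among acute phase proteins 2 of 29 rose and 2 fell (6.90% each, against 3.36% and 5.97% of all genes). None rose without APAP array 31 and 1 without control array 32. Orm1 was lower by 0.70 ± 0.15 and haptoglobin (Hp) by 0.51 ± 0.11. Of 48 serpins 3 fell and 1 rose (6.25% and 2.08%, against 5.97% and 3.36% of all genes). Serpind1 (heparin cofactor II) read 9.02, 9.25 and 8.74 against 9.93, 9.81 and 9.79 (-0.84 ± 0.11). Hexim1, which holds the elongation factor P-TEFb inactive, rose from 9.68, 10.12 and 10.04 to 10.57, 10.77 and 11.01 (0.84 ± 0.14), while Nelfa, of the pausing complex NELF, fell by 0.49 ± 0.08.

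The same comparison at 2 h and 6 h, each against control arrays of its own time, placed these changes in time. At 2 h 62 genes were higher (0.311%) and 74 lower (0.371%), and at 6 h 210 were higher (1.05%) and 288 lower (1.44%). Of the 210 genes higher at 6 h, 133 were also higher at 24 h (63.3% of the 6 h list and 19.9% of the 24 h list), and of the 288 lower at 6 h, 177 were also lower at 24 h (61.5% and 14.9%). For 2 h, the shared genes were 36 of 62 higher (58.1%, and 5.37% of the 24 h list) and 42 of 74 lower (56.8% and 3.53%). No gene called at 2 h or 6 h was called in the opposite direction at 24 h.

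The difference between times was tested directly as an interaction in the model. The effect of APAP at 24 h minus that at 2 h was called for 71 genes (0.356% of those tested), 34 upward and 37 downward, and the count with 1 array of either time left out ranged from 26 (without APAP array 31 at 2 h) to 66 (without APAP array 32 at 24 h), with 34 to 39 without a control array at 24 h, 43 without APAP array 32 at 2 h, 46 and 47 without array 30 of either group at 2 h, and 32 without control array 31 or 32 at 2 h. The effect at 24 h minus that at 6 h was called for 2 genes (0.0100%), Ces2e and Col12a1, against 1423 at an unadjusted p under 0.05. Arrdc3 differed from control by 0.19 at 2 h, 1.36 at 6 h and 2.02 at 24 h, and the 24 h effect exceeded the 2 h effect by 1.83 ± 0.26 (adjusted p = 0.00054). Pm20d1 followed the same course, with 0.38, 1.05 and 1.68. Col12a1, with -0.09 at 2 h and -0.03 at 6 h, differed from control at 24 h alone among these times, and its 24 h effect exceeded that at 6 h by 1.28 ± 0.17 (adjusted p = 0.00073). Ces2e had the same pattern, with 0.03, 0.04 and 0.83. Pdk4 differed by -0.24, 0.04 and 0.93.

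Cholesterol genes were followed over the same times. The list's median difference was 0.14 at 2 h, -0.11 at 6 h and -0.65 at 24 h, and for 16 of its 17 genes the 24 h effect lay below the 2 h effect, of which 5 were called. Pmvk showed the largest of these shifts, from 0.34 at 2 h to -0.65 at 24 h (-0.99 ± 0.14, adjusted p = 0.00054), followed by Idi1 (-0.90 ± 0.17), Fdft1 (-0.83 ± 0.17), Fdps (-0.78 ± 0.11) and Nsdhl (-0.71 ± 0.12). The call of Fdft1 was lost without 11 of the 12 arrays in turn (all but APAP array 30 at 24 h, adjusted p from 0.0507 to 0.0749), while those of the other 4 held without any single array. Pold2 shifted by -0.76 ± 0.13, from 0.02 at 2 h.

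In other groups some differences from control were already large at 2 h. H1f5 differed from control by -1.62 at 2 h, -1.28 at 6 h and -1.77 at 24 h, and H2bc14 by -1.72, -0.84 and -0.92. The histone list had a median of -0.43 at 2 h, -0.31 at 6 h and -0.32 at 24 h. Its 24 h effect minus the 2 h effect was called upward for 2 genes and downward for 1. The latter was H2ax (-0.65), a call lost without any one of 11 of the 12 arrays. The mitosis list had a median of -0.35 at 2 h, -0.43 at 6 h and -0.27 at 24 h, and Bub1b differed by -0.58, -1.25 and -1.04. Atf3 differed by 1.80, 1.97 and 2.00 and Btg2 by 1.38, 1.00 and 1.36, and neither 24 h effect was called different from that at 2 h or 6 h. Egr1, by contrast, differed by 1.50 at 2 h, 0.50 at 6 h and 0.52 at 24 h, a difference of -0.98 ± 0.22 between 24 h and 2 h (adjusted p = 0.0454) that was lost without any one of 10 of the 12 arrays (all but APAP array 31 at 24 h and APAP array 30 at 2 h, adjusted p from 0.0549 to 0.136). Mdm2 stood at 0.70, 0.91 and 1.40, and its increase from 2 h to 24 h, 0.71 ± 0.19, was not called (adjusted p = 0.123).

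**Figure D5:**
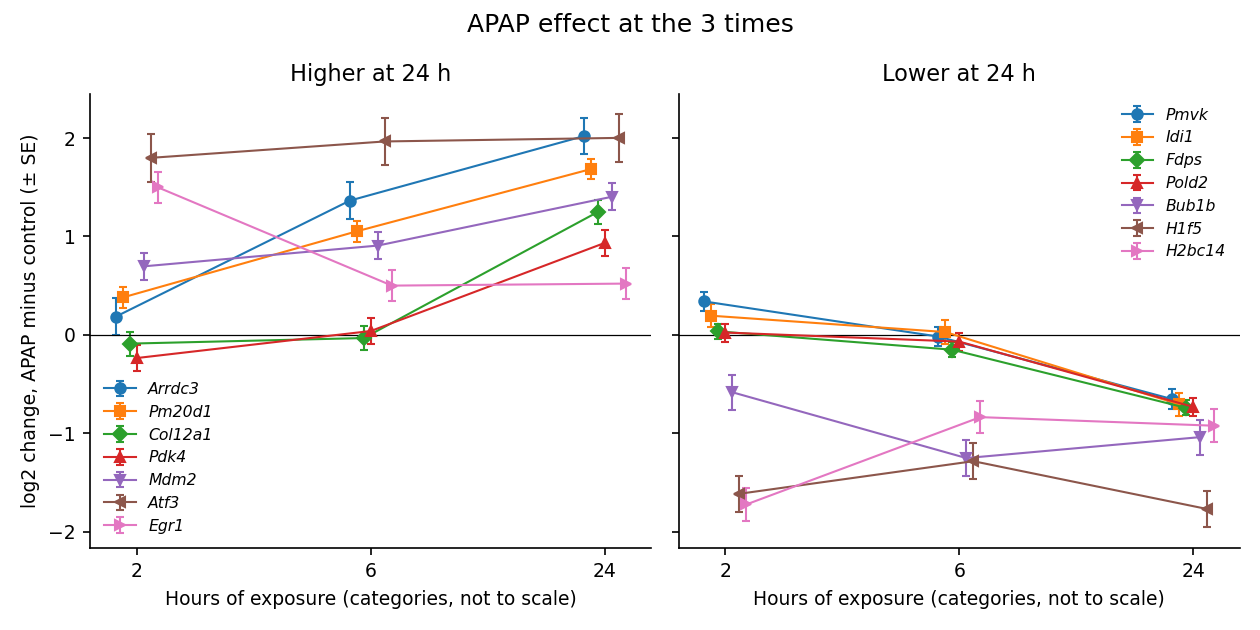
Difference APAP minus control in log2 units at 2, 6 and 24 h, each against the control arrays of that time, for 7 genes that rose (left) and 7 that fell (right) at 24 h, with bars for the standard error. Atf3 and H1f5 are far from 0 at all times, Col12a1 and Pdk4 leave 0 at 24 h, and Egr1 is highest at 2 h.

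AMAP at the same dose and time gave a direct comparison of the isomers. APAP arrays were higher than AMAP arrays at 24 h for 373 genes (1.87%) and lower for 555 (2.78%), 928 in all, with 314 called when the 6 arrays were fitted alone. Dropping AMAP array 30 gave 507 in all, dropping AMAP array 32 gave 575, and dropping any other of the 6 arrays gave 631 to 809. Differences from control under APAP and AMAP share the control arrays and are given side by side only. Many p53 targets differed between the isomers. Mdm2 differed from control by 1.40 under APAP and -0.09 under AMAP, with 1.49 ± 0.14 between the isomers (adjusted p = 1.15e-07), Phlda3 by 0.90 and -0.45 (1.35 ± 0.19 between them) and Fas by 0.79 and -0.28 (1.07 ± 0.10). Between the isomers 9 of the 11 growth-arrest targets, 11 of the 15 death and survival targets and 5 of the 12 repair targets were higher under APAP, and 1 death target, Bid, was lower.

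Stress and lipid genes did so as well. Atf3 differed from control by 2.00 under APAP and 0.14 under AMAP (1.86 ± 0.24 between them, adjusted p = 1.80e-05) and Jun by 1.69 and 0.26 (1.43 ± 0.21). Of the 17 cholesterol genes 16 were lower under APAP than under AMAP and none was higher, with 14 to 16 lower without any single array. Without all arrays numbered 30, 8 were lower. Among the 16, the call of Hsd17b7 was lost without any one of 4 of the 6 arrays (adjusted p from 0.0570 to 0.0799) and that of Tm7sf2 without any one of 3 (0.0668 to 0.134). Fdps differed by -0.74 and 0.02 (-0.76 ± 0.08 between the isomers, adjusted p = 4.16e-07), Lss by -0.69 and 0.38 (-1.07 ± 0.17) and Insig1 by -0.43 and 0.35 (-0.78 ± 0.14). Of the histone genes 10 of 34 were lower under APAP, H1f5 with -1.77 and -0.28 (-1.49 ± 0.18 between them), and the histone count was 5 without AMAP array 30 or APAP array 31. Ces2e differed from control in opposite directions, by 0.83 under APAP and -0.40 under AMAP (1.23 ± 0.07, adjusted p = 1.37e-11), and Gria3, an AMPA receptor subunit, by 0.98 and -0.48 (1.46 ± 0.12).

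Several large changes were not told apart between the isomers. Serpina7 differed from control by -1.54 under APAP and -0.94 under AMAP, with -0.61 between them (95% interval -1.28 to 0.06, adjusted p = 0.319), and Fmo1 by -1.13 and -0.65 (interval -0.84 to -0.12, adjusted p = 0.126). With the array number as a block, which may pair APAP and AMAP arrays, Fmo1 was called (adjusted p = 0.0048) and Serpina7 was not (0.0776). Orm1 stood at -0.70 and -0.73 and Emp1 at -1.05 and -0.81 (adjusted p between the isomers 0.947 and 0.541). Without the block, none of the 79 ribosome biogenesis genes and none of the 45 proteasome subunits was called between the isomers. With it, 1 and 3 were lower under APAP, and 1 and 2 with a block within the 24 h arrays alone. The median difference between the isomers was -0.12 and -0.10, against 0.02 over all genes. Cad differed by -0.54 and -0.42, and Hexim1 by 0.84 and 0.57, with adjusted p between the isomers of 0.494 and 0.312. The block also gave calls for Ddit3 (adjusted p = 0.0630 without it and 0.0101 with it), Slc7a5 (0.0766 and 0.0012), Gadd45a (0.149 and 0.0358), Trib3 (0.162 and 0.0269) and 7 other genes named above. A p that misses the threshold does not show that the isomers acted alike.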

How the data were processed

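The values are log2 signals of 35557 probe sets of Affymetrix Mouse Gene 1.0 ST arrays, deposited by the authors after RMA in Affymetrix Expression Console 1.1, per the submitters' processing notes. RMA subtracts background, equalises the distributions of the arrays and summarises probes, so a change shared by most genes is removed. Of the probe sets 21789 have 1 gene symbol, 1621 have several and 12147 have none. Where a gene had more than 1 probe set (999 genes), the one with the highest mean was used, which left 19938 genes.

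A limma model (limma 3.58.1 in R 4.3.3) with a mean for each of the 9 groups was fitted to all 27 arrays (18 residual degrees of freedom). Genes with a Benjamini-Hochberg adjusted p below 0.05 over all genes count as called, and adjusted p values in the text come from this test. Where the text names arrays left out or a block, the adjusted p comes from the same test in a refit under that setting. On simulated data for the 24 h comparison over 19938 genes, 79.1% of changes of 0.5 log2 units were recovered. Of changes of 1 and 2, 100% were recovered, and there were 14 false calls. Only 67 genes were given a change of 0.5, and the noise was independent between genes, with no deviation shared across an array. Real arrays can share such deviations, so these rates do not give the reliability of the calls above. The number of arrays limits the precision.

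The members and the 78 gene lists were chosen with earlier results of these data known, and 2390 of 2503 list entries were matched. Named genes were, first, the 15 largest changes each way among called genes whose groups did not overlap, at a mean signal of at least 6. Up to 4 per list were those with the smallest p, at any signal. Up to 5 per contrast each way were called there and between APAP and control at 24 h, with the same signal floor. A panel of 36 entries, 30 of them matched, was added. Genes named outside this rule were chosen after their values were seen: Aacs, Apaf1, Atf4, Bbc3, Cenpf, Ebp, Eda2r, Fads1, Gtse1, H2bc14, Hmgcs1, Hsd17b7, Insig1, Ltv1, Map2k5, Map3k1, Mgmt, Msmo1, Mvd, Mvk, Phlda3, Plk1, Prps2, Sc5d, Sesn1, Slc7a5, Tm7sf2, Zmat3. Alternatives were the replicate block, fits on fewer arrays, an intensity trend, array weights, other scalings, bright genes only, the mean of probe sets and leaving arrays out.

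Array numbers occur in every group. Deviations of same-numbered APAP and AMAP arrays at 24 h correlated across genes (0.213, 0.470 and 0.292), and those of differently numbered arrays ran from -0.365 to 0.129. Genes are not independent replicates, so those numbers may pair the arrays but this is not known. For same-numbered APAP and control arrays the values were 0.0845, -0.0830 and 0.166. With the block, 484 genes were higher and 778 lower between the isomers. Promoters are RefSeq windows (GRCm38.p6) of 250 bases before the start, searched on both strands.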

Additional observations from a re-analysis of the deposited data

Results flagged for a closer look

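Several effects of APAP at 24 h differed from the effect at 2 h by the test of the difference itself. Upward differences that held without any single array of the 12 were those of Arrdc3 (1.83), Col12a1 (1.34), Pm20d1 (1.30), Pdk4 (1.17), Cpt1c (0.99), Notch3 (0.92), Gria3 (0.92) and Ces2e (0.80). Downward ones were those of Pmvk (-0.99), Idi1 (-0.90), Fdps (-0.78), Pold2 (-0.76), Stard4 (-0.75) and Nsdhl (-0.71).

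Other such differences were lost without 1 or more of the 12 arrays. Slc4a11 (1.05) was lost without control array 31 at 2 h (adjusted p = 0.0556) and Ces2g (0.78) without control array 32 at 2 h (0.0611). Perp (0.62) and Serpind1 (-0.78) were lost without any one of 3 arrays and Bok (-0.76) without any one of 4. The differences of Psrc1 (0.89), Ephx1 (0.63), Egr1 (-0.98), Elovl6 (-0.89), Fdft1 (-0.83), Cldn3 (-0.77), Map2k6 (-0.68), H2ax (-0.65), Mrps27 (-0.58) and Scd2 (-0.54) were lost without any one of 8 to 12 arrays.

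The effect at 24 h exceeded that at 6 h for Col12a1 (1.28) and Ces2e (0.785).

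Probe sets without a single gene symbol, which no comparison of genes used, were fitted with all 35557 probe sets, and p was adjusted over these. Of the 13768 without a single symbol, 155 were higher and 202 lower under APAP at 24 h, against 670 and 1190 of the 19938 genes. The probe sets 10582890 (1.60) and 10582896 (1.72) rose and 10340917 (-1.16) and 10494405 (-1.02) fell. Larger differences stood at dim probe sets, such as 10344121 (1.85, control mean 3.93) and 10343527 (-1.42, control mean 4.97).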

How the results depend on the processing

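Against 670 higher and 1190 lower genes at 24 h, the 6 arrays fitted alone gave 370 and 587, array weights 1160 and 1883, and scaling to a common median 394 and 1808, while the 9 arrays of 24 h alone gave 780 lower genes. Leaving out 1 array, or all arrays of 1 number, gave 182 to 595 higher and 267 to 1276 lower genes. The difference between 24 h and 2 h (71 genes) became 187 with the replicate block, 297 with array weights and 110 over bright genes only, and 0 to 66 with arrays left out. That between 24 h and 6 h (2 genes) became 12 with the block, 6 with an intensity trend, 13 with weights, 7 after quantile normalization and 6 over bright genes only, and 0 to 4 with arrays left out. Between APAP and AMAP, 928 genes became 314 with 6 arrays alone, 557 with 9 and 1501 with weights, and 195 to 809 with arrays left out. The cause of these shifts was not tested. With the replicate block, APAP against control gave 848 higher and 1465 lower genes. The deviations of same-numbered APAP and control arrays correlated by 0.0845, -0.0830 and 0.166, and whether the numbers pair these arrays is not known. Between APAP and AMAP, whose same-numbered arrays may be paired, the block ended no call among the genes named here and added 12. None of the 144 named genes called between APAP and control at 24 h changed direction under any alternative. The groups did not overlap for 1816 of the 1860 called genes. Leaving arrays out cannot reverse such a gene, so the lack of reversals adds little to the calls. Of the 144 genes, 24 missed the threshold without at least 1 array, 72 without all arrays of 1 number and 20 under other settings.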
